A study of Homo sapiens with 6 samples.

Results

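The genes described here are 10 members of 3 families of small calcium- or sugar-binding proteins, the S100 proteins S100A4, S100A6, S100A10, S100A11, S100A13 and S100A16, the annexins ANXA1 and ANXA2, and the galectins LGALS1 and LGALS3. They were chosen by symbol out of 62696 annotated genes, each symbol matched 1 gene identifier, and all 10 were found. Expression was measured by RNA-Seq in DMS53, an established SCLC cell line with neuroendocrine (NE) features, after lentiviral transduction. The 3 control libraries come from cells carrying the empty vector and the 3 OC2-OE libraries from cells with enforced expression of OC2, the protein of ONECUT2. Both vectors carry mGFP, OC2 was expressed as an mGFP fusion from a constitutive vector, and both lines were grown in RPMI-1640 with FBS and selected with puromycin. The study describes the 3 libraries of a group as independent experiments, and separate transductions are not mentioned in the sources used here, so p-values measure the spread between these libraries.

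S100 proteins are small EF-hand proteins that mostly form dimers and, on binding calcium, expose a surface that holds partner proteins. Annexins bind acidic phospholipids in a calcium-dependent manner and take part in membrane traffic and membrane repair, and ANXA1 and ANXA2 carry S100A11 and S100A10, respectively, on their N-terminal tails. Galectins bind beta-galactosides on glycoproteins, inside and outside the cell. Many of these genes are abundant in epithelial and mesenchymal cells, and several are low in NE cells.

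The sequences before the starts of the 4 genes that changed are shown because 3 of them rose together and 1 fell. Each is the 250 bases before the RefSeq start on GRCh38.p14, 5′ to 3′ on the strand of the gene. Capitals mark matches to a TATA box, searched as TATAAA on the gene's strand, and to an AP-1 motif, searched as TGANTCA on both strands.
ANXA2, chr15:60397987-60398236, minus strand: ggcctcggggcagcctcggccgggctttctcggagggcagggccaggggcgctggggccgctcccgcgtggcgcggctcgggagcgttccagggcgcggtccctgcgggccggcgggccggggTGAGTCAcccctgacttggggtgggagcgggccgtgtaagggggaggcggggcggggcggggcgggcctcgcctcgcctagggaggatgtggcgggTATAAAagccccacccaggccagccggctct
ANXA1, chr9:73151615-73151864, plus strand: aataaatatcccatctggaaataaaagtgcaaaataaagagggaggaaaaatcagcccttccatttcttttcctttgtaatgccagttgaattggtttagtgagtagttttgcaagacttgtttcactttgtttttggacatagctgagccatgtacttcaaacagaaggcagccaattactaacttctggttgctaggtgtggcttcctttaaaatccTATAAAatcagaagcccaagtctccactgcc
LGALS3, chr14:55129002-55129251, plus strand: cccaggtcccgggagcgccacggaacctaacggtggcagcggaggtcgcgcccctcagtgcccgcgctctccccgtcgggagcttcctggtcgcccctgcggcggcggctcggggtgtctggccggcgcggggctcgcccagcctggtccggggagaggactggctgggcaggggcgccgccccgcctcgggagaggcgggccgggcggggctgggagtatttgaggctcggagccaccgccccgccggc
S100A11, chr1:152037005-152037254, minus strand: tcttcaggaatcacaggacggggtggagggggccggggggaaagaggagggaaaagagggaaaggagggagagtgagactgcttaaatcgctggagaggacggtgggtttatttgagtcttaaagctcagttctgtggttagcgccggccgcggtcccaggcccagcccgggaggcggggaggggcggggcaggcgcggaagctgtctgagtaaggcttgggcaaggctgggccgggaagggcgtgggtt
The windows differ widely in base composition. The GC content was 38.4% for ANXA1, with 0 CpG dinucleotides, against 78.0% for ANXA2, 78.8% for LGALS3 and 63.6% for S100A11, while the promoters of tested genes had a median of 64%. A TATAAA match began 31 bases before the start in both annexin genes and was in neither of the other windows shown. Among the genes that did not pass or were not tested, it was also found 31 bases before the start of S100A4 and 29 bases before 1 of the starts of S100A13, and 6.80% of 35116 promoters hold one. TGAGTCA, an AP-1 match, began 127 bases before the start of ANXA2, and 6.57% of promoters hold this motif. The core ATCAAT of the ONECUT motif, searched on both strands, had no match in these 4 windows. Of the other windows, it was found in 1 of the 3 alternative starts of S100A13, 175 bases before the start, and 5.58% of promoters hold it. A match of letters is a description and says nothing of binding.

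The libraries held 16533284 to 19099337 counted read pairs. ONECUT2 was examined first, as a check of the labels, and had 394 to 465 counts in control libraries, against 68853 to 74031 in OC2-OE libraries (log2 fold change 7.32, adjusted p = 1.95e-158). Levels are given in CPM, which is the count scaled to library size with edgeR's TMM factor, with the SD over 3 libraries. All 7 markers of NE cells that were listed were expressed in control cells, between 72.2 CPM for CHGA, chromogranin A, and 3774 CPM for CALCA, the calcitonin gene. In OC2-OE cells 6 of the 7 were lower and CHGA was higher, with GRP, gastrin-releasing peptide, and INSM1 at log2 fold changes of -4.41 and -1.93 and NCAM1 going from 164 to 41.2 CPM. Leukocyte markers summed to between 3.85 and 4.42 CPM in control and between 7.44 and 9.06 CPM in OC2-OE libraries, with PTPRC at 0 and 3 counts and CD3E at 0 throughout, and both tested markers, LYZ and CD14, were higher. Fibroblast markers summed to between 22.5 and 25.4 CPM in control and between 28.5 and 32.4 CPM in OC2-OE, most of it COL1A1, with DCN at 3 counts in either group, and of 4 tested 2 were higher and 1 lower. Endothelial markers summed to between 12.7 and 15.1 CPM in control and between 4.17 and 4.73 CPM in OC2-OE, and of 3 tested 2, KDR and CDH5, were lower. PECAM1 did not pass (log2 fold change 0.02). Of those not tested, VWF had 1 count in control and 17 in OC2-OE libraries, and TEK had 2 and 0. The mitochondrial share of counts was 2.28% to 2.47% in control and 2.89% to 2.90% in OC2-OE libraries. These marker counts stand beside 56.5% of all tested genes that passed, 27.8% higher and 28.7% lower. The part of these differences in the results below was not tested.

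The 10 genes did not move as a group. ANXA1, ANXA2 and LGALS3 were higher in OC2-OE cells by 3.19-fold to 5.61-fold, S100A11 was lower, and S100A6, S100A10 and S100A13 did not pass the threshold. S100A4, S100A16 and LGALS1 had so few counts that they were not tested. A total of 7 of the 10 genes thus entered the quasi-likelihood test of edgeR, with p-values adjusted over all genes and the study's threshold of 0.001, and 4 of the 7 passed it. Over all 17307 genes tested, 56.5% passed, with 27.8% higher and 28.7% lower in OC2-OE cells, so that 4 of 7 lies close to the background. The median log2 fold change was -0.01 over the 7 genes and 0.01 over all genes. In 4 of the 7, the same 4, the libraries of both groups did not overlap, against 73.2% of all genes. The size of the 3 rises was less common, since only 8.29% of all tested genes were higher and at least 2-fold changed. In bulk RNA, a lower share of cells that express a gene and less RNA per cell cannot be told apart.

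**Figure D1:**
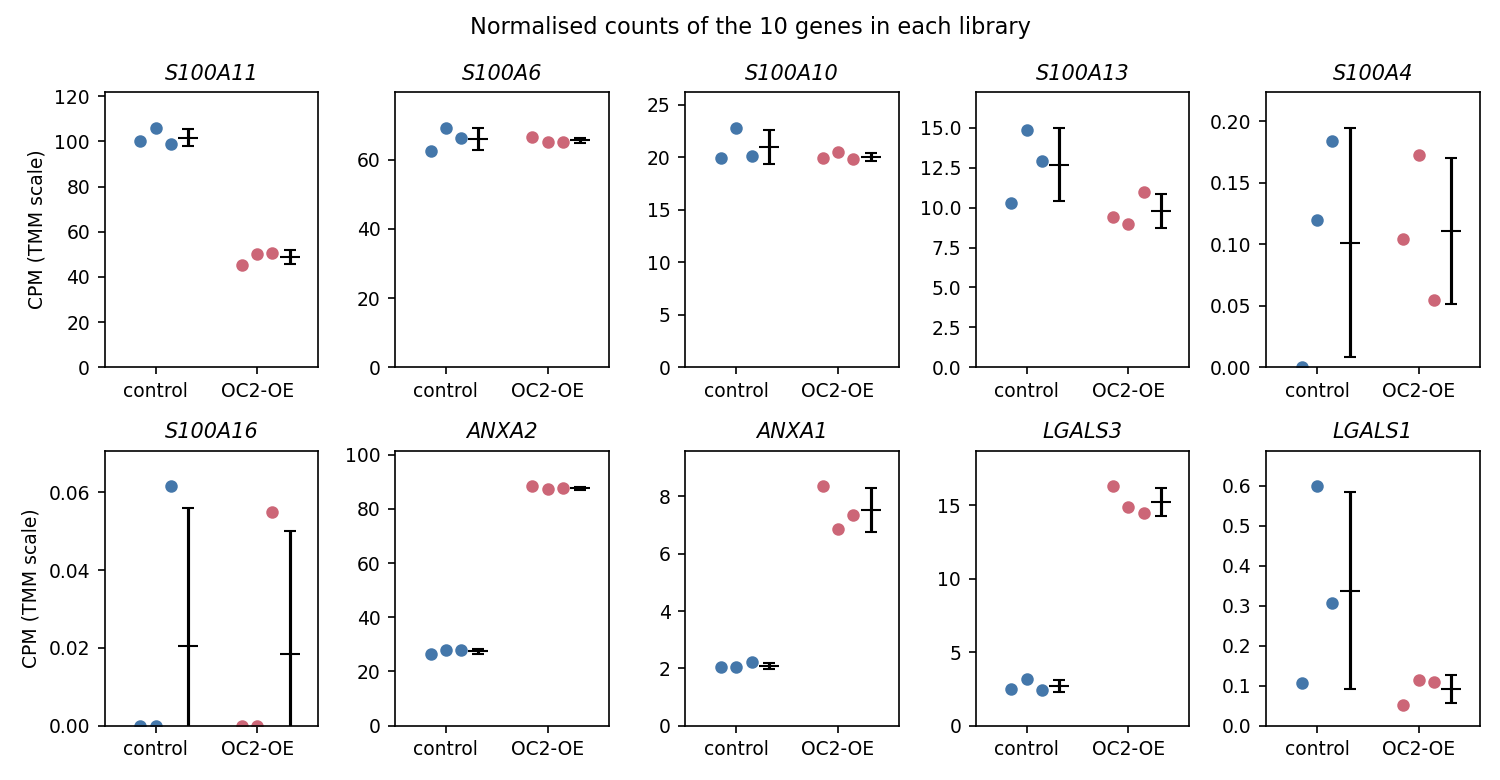
Level of each of the 10 genes in every library, in CPM on the TMM scale with each axis starting at 0 and scaled to its gene. Points are libraries in the order of replicates 1, 2 and 3, and the dash and bar beside them are the mean and SD (n = 3). ANXA2, ANXA1 and LGALS3 lie higher and S100A11 lower in all 3 OC2-OE libraries, and S100A4, S100A16 and LGALS1 stay under 1 CPM throughout.

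S100A11 encodes an S100 protein of the cytosol and nucleus that binds ANXA1 and takes part in keratinocyte growth control and plasma membrane repair. The gene (ENSG00000163191.6) lies on the minus strand of chromosome 1 of GRCh38 from 152032506 to 152047907. Its level was 100, 106 and 98.9 CPM in control replicates 1, 2 and 3 and 45.2, 50.3 and 50.6 CPM in OC2-OE replicates 1, 2 and 3. The lowest control library was thus well above the highest OC2-OE library. The mean went from 102 ± 3.96 to 48.7 ± 3.02 CPM (SD, n = 3), and the log2 fold change was -1.07 (SE of 0.043, adjusted p = 7.88e-47). On the scale of log2 fold change, 1508 of the 17307 tested genes had a lower value. Its 8 processed copies by symbol, S100A11P1 among them, had 0 counts in all libraries.

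S100A6, calcyclin, is a second abundant member and binds CACYBP, an adaptor of ubiquitin ligases. The gene (ENSG00000197956.10) lies on chromosome 1 from 153534599 to 153536244. The control libraries had 62.6, 69.1 and 66.3 CPM and the OC2-OE libraries 66.5, 65.3 and 65.1 CPM. All 3 OC2-OE values fell inside the range of the control values. The log2 fold change was -0.01 with a 95% interval from -0.09 to 0.08 (adjusted p = 0.902), which as a fold is 0.938 to 1.06.

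S100A10 is the S100 protein that has lost calcium binding and stays bound to ANXA2 as a heterotetramer at the plasma membrane. The gene (ENSG00000197747.9) lies on chromosome 1 from 151982915 to 151993859, next to S100A11. It had 19.9, 22.8 and 20.1 CPM in control and 19.9, 20.5 and 19.8 CPM in OC2-OE libraries. The groups overlapped, and the log2 fold change was -0.06 with an interval from -0.20 to 0.09 (adjusted p = 0.473). A fold outside 0.869 to 1.06 lay beyond that interval, while its annexin partner rose.

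S100A13, which binds FGF1 and assists its release by an unconventional route, was the member nearest to the threshold. The gene (ENSG00000189171.15) lies on chromosome 1 from 153618787 to 153631360. Its level was 10.3, 14.9 and 12.9 CPM in control and 9.39, 8.95 and 11 CPM in OC2-OE libraries. OC2-OE replicate 3 was above control replicate 1, so the groups overlapped. The log2 fold change was -0.37 with an interval from -0.57 to -0.16, and the adjusted p was 0.00102. Without control replicate 1, the adjusted p was 7.84e-06 and the log2 fold change -0.51, and without control replicate 2 they were 0.0559 and -0.24. The adjusted p was also under the threshold without OC2-OE replicate 3, at 0.000674, without the filter on low counts, at 0.000702, and with the replicate number as a block, at 0.000912. Of its exonic bases, 24.2% are shared with a transcript on the same strand, ENSG00000271853, and read pairs there can be left uncounted.

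The other S100 members, S100A4 (chromosome 1, 153543613 to 153550136) and S100A16 (chromosome 1, 153606886 to 153613145), were hardly detected. S100A4, a binder of non-muscle myosin often read as a mesenchymal marker, had 0, 2 and 3 counts in control and 2, 3 and 1 in OC2-OE libraries, a ratio of 1.13 with a 95% counting interval from 0.288 to 4.70. S100A16 had 1 count in either group, a ratio of 0.945 with a 95% counting interval from 0.012 to 74.1. At 3 counts over a group, the limit of detection lay at 0.0581 CPM in control and 0.0548 CPM in OC2-OE cells. A change of S100A16 inside its wide interval could not be seen at this depth.

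ANXA2 encodes the annexin that links S100A10 to the plasma membrane and assembles plasminogen and tissue plasminogen activator at the cell surface. The gene (ENSG00000182718.18) lies on the minus strand of chromosome 15 from 60347134 to 60402883. It had 26.5, 27.9 and 28.0 CPM in control and 88.3, 87.2 and 87.6 CPM in OC2-OE libraries. Each group lay within a narrow range and the groups were far apart. The mean rose from 27.5 ± 0.807 to 87.7 ± 0.553 CPM (SD, n = 3), and the log2 fold change was 1.68 (SE of 0.048, adjusted p = 2.12e-61). Reads of ANXA2 can also fall on its near-identical processed copies. ANXA2P2, the copy with the most counts, had 11 in control and 26 in OC2-OE libraries, against 1418 and 4799 for ANXA2.

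ANXA1, an annexin released by cells that acts on formyl peptide receptors and was first known as a mediator of glucocorticoid action, rose from a much lower level. The gene (ENSG00000135046.14) lies on the plus strand of chromosome 9 from 73151865 to 73170393. It had 38, 34 and 36 counts in control and 160, 119 and 134 in OC2-OE libraries. The lowest OC2-OE library had more counts than all 3 control libraries together. The mean rose from 2.09 ± 0.104 to 7.52 ± 0.755 CPM (SD, n = 3), and the log2 fold change was 1.85 (SE of 0.16, adjusted p = 2.88e-20). FPR1, FPR2 and FPR3, the formyl peptide receptors, had 0 counts in all libraries.

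LGALS3 encodes galectin-3, the chimera-type galectin with a collagen-like tail, which crosslinks glycoproteins and gathers on damaged lysosomes. The gene (ENSG00000131981.16) lies on the plus strand of chromosome 14 from 55124110 to 55145423. It had 47, 53 and 40 counts in control and 312, 258 and 264 in OC2-OE libraries. The groups did not overlap, and the OC2-OE libraries held several times the counts of the control libraries. The log2 fold change was 2.49 (SE of 0.13, adjusted p = 6.20e-38), the largest of the 7 tested genes, and 269 of the 17307 tested genes had a higher value.

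LGALS1, galectin-1, a dimeric galectin that is abundant in mesenchymal cells, stood near the limit of detection. The gene (ENSG00000100097.12) lies on chromosome 22 from 37675636 to 37679802. It had 2, 10 and 5 counts in control and 1, 2 and 2 in OC2-OE libraries. The ratio of OC2-OE to control was 0.278 with a 95% counting interval from 0.0801 to 0.784, which covers counting error only, and control replicate 2 held 10 of the 17 counts. When genes with low counts were kept in the edgeR test, its adjusted p was 0.0677.

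**Figure D2:**
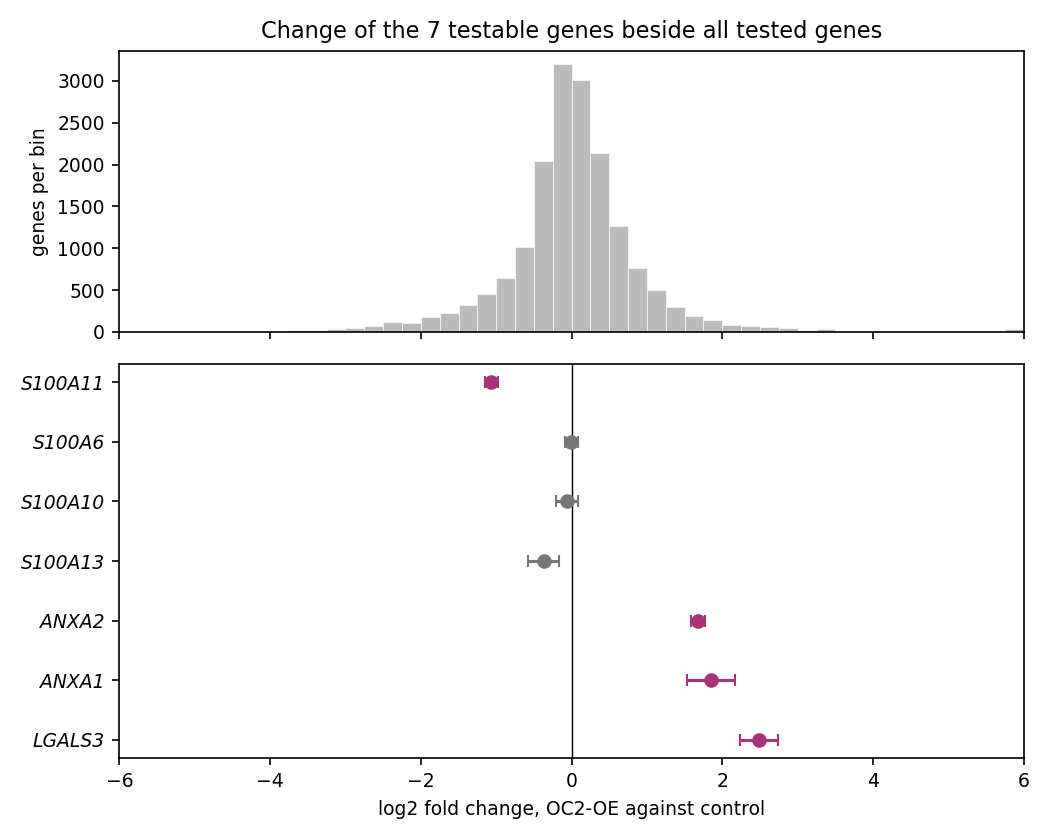
The upper panel counts all 17307 tested genes by log2 fold change of OC2-OE against control, in bins of 0.25, with values beyond the axis in the end bins. The lower panel gives the 7 tested genes with 95% intervals, coloured where the adjusted p was under 0.001. LGALS3 at 2.49, ANXA1 at 1.85 and ANXA2 at 1.68 lie in the right tail, S100A11 at -1.07 in the left, and S100A6, S100A10 and S100A13 near the centre.

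To compare levels between genes, counts were divided by exon length and scaled to TPM. In control cells S100A11 stood highest at 640 ± 22.0 TPM (SD, n = 3), followed by S100A6 at 277 ± 13.4 TPM, S100A10 at 84.4 ± 6.31 TPM and S100A13 at 23.4 ± 4.20 TPM. ANXA2, LGALS3, ANXA1 and LGALS1 followed at means of 9.68, 5.03, 1.92 and 1.29 TPM, and S100A4 and S100A16 came last. With the exon union as length, neighbours in this order did not overlap down to ANXA1, while ANXA1 and LGALS1, and LGALS1 and S100A4, did. In mean TPM over all 6 libraries of both groups, S100A11 and S100A6 ranked above 98.8% and 97.1% of tested genes on the same length. In OC2-OE cells S100A11 stood at 315 ± 19.5 TPM and S100A6 at 283 ± 3.25 TPM, so that they lay closer together than in control cells. ANXA2 rose from 9.35 to 9.91 TPM over the control libraries to 31.6 to 32 TPM over the OC2-OE libraries, and LGALS3 from 4.59 to 5.85 TPM to 27.6 to 31.0 TPM. The order of the genes depended on the length used. With the median length of coding transcripts of GENCODE release 29, a choice made after the data were seen, S100A11 stood at 700 and S100A6 at 403 per length in control cells, but at 344 and 411 in OC2-OE cells, so that S100A6 was then the higher. On that length S100A10 and S100A13 were nearly level in control cells, at 93.9 and 92.2. ANXA2 moved above both, to 168 in control and 550 in OC2-OE cells. Its exon union spans 11574 bases, while the median of its 27 coding transcripts is only 669 bases. Whether so short a median stands for the transcripts expressed was not tested, so no rank of ANXA2 is drawn from it.

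The ratio of S100A10 to ANXA2 was calculated in each library, because their proteins form a complex. In TPM it was 8.55, 9.36 and 8.22 in control libraries, against 2.58, 2.69 and 2.59 in OC2-OE libraries. The groups did not overlap, and the mean ratio went from 8.71 ± 0.584 to 2.62 ± 0.0592 (SD, n = 3). With the median transcript length in place of the exon union, the ratio was 0.559 in control and 0.168 in OC2-OE cells. That median is 669 bases for ANXA2 and 909 bases for S100A10, and whether it stands for the transcripts expressed was not tested. The size of the ratio, and which of the 2 genes stood higher, depended on the length. The change of the ratio between groups could not, because each gene has the same length in all libraries. For S100A11 and its partner ANXA1 the ratio went from 335 ± 26.6 to 44.8 ± 6.84 (SD, n = 3), with S100A11 lower and ANXA1 higher. With the median transcript length, the ratio of the group means was 94.6 in control and 12.6 in OC2-OE cells. For S100A6 and CACYBP it went from 2.82 ± 0.151 to 4.83 ± 0.207 (SD, n = 3), with CACYBP lower by 0.78 on the log2 scale. No test was made of these ratios.

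The rest of the 3 families were examined as lists. Their counts are to be read against the 56.5% of all tested genes that passed, and no list was tested as a set. Of 14 other S100 genes 7 had no count in any library, among them S100A8, S100A9 and S100A12, the calgranulins of myeloid cells, and S100B, a glial marker. Only 2 could be tested, and they went in opposite directions. S100A2, an S100 gene of basal epithelium, fell from 9.95 ± 0.827 to 3.85 ± 0.375 CPM (SD, n = 3), and the log2 fold change was -1.36 (adjusted p = 3.68e-18). S100P, an S100 gene often expressed in gland-forming carcinomas, had 22 counts in control and 86 in OC2-OE libraries, a log2 fold change of 1.87 (adjusted p = 1.18e-06). The summed level of all S100 genes, which was not tested, went from 1060 ± 42.3 to 725 ± 14.7 TPM (SD, n = 3). Within that sum the share of S100A11 went from 60.6% to 43.3% and that of S100A6 from 26.2% to 39.1%. These shares also rest on the exon union, and with the median transcript length S100A6 stood above S100A11 in OC2-OE cells.

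Of 11 other annexins 8 were tested, and all 8 passed the threshold, 4 higher and 4 lower, against 27.8% higher and 28.7% lower over all tested genes. ANXA3 rose from 0.956 ± 0.239 to 7.34 ± 0.337 CPM (SD, n = 3), and the log2 fold change was 2.92 (adjusted p = 2.73e-28). ANXA4, ANXA5 and ANXA7, widely expressed annexins, had smaller log2 fold changes of 0.47, 0.29 and 0.19. ANXA13, the annexin of intestinal and kidney epithelium, fell from 185 ± 3.2 to 38.5 ± 0.934 CPM (SD, n = 3), and the log2 fold change was -2.26 (adjusted p = 5.24e-86). ANXA6, an annexin with a duplicated core, fell from 52.7 ± 3.71 to 22.9 ± 0.765 CPM (SD, n = 3), and the log2 fold change was -1.20. ANXA11 and ANXA9 had -0.46 and -0.70. The median over the 8 was -0.14, and with ANXA1 and ANXA2 the family changed in both directions. The summed level of all annexins, which was not tested, went from 820 ± 9.72 to 727 ± 12.2 TPM (SD, n = 3), while ANXA1 and ANXA2 rose. ANXA13 made up 24.2% of that sum in control and 5.85% in OC2-OE cells. The share of ANXA2 in it was 1.18% and 4.37%, and that of ANXA1 0.234% and 0.976%. These shares rest on the exon union as length, and the level of ANXA2 per length was 168 and 550 with the median transcript length in place of 9.68 and 31.8 TPM. That median is 669 bases, and whether it stands for the transcripts expressed was not tested.

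Of 13 other galectin genes 6 had no count and 4 were tested, of which 3 were higher, 0 lower and 1, LGALS9, did not pass (log2 fold change -0.08, adjusted p = 0.836). Over all tested genes 27.8% were higher and 28.7% lower. LGALS4, a galectin of intestinal epithelium, had 57 counts in control and 224 in OC2-OE libraries, a log2 fold change of 1.88 (adjusted p = 4.95e-13). LGALSL, the galectin-like protein, rose by 0.75 and LGALS8, the most abundant galectin, by 0.21 on the log2 scale. LGALS13, which was named after its values were seen, had 9, 7 and 9 counts in the control libraries and 0 in all OC2-OE libraries, at least 8.82-fold lower against 3 counts over the group, and had too few counts for the test. The summed level of all galectins, also not tested, went from 107 ± 0.601 to 159 ± 3.09 TPM (SD, n = 3), and the share of LGALS3 in it went from 4.71% to 18.2%. This share rests on the exon union too, and the level of LGALS3 per length was 12.1 in control and 69.6 in OC2-OE cells with the median transcript length.

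**Figure D3:**
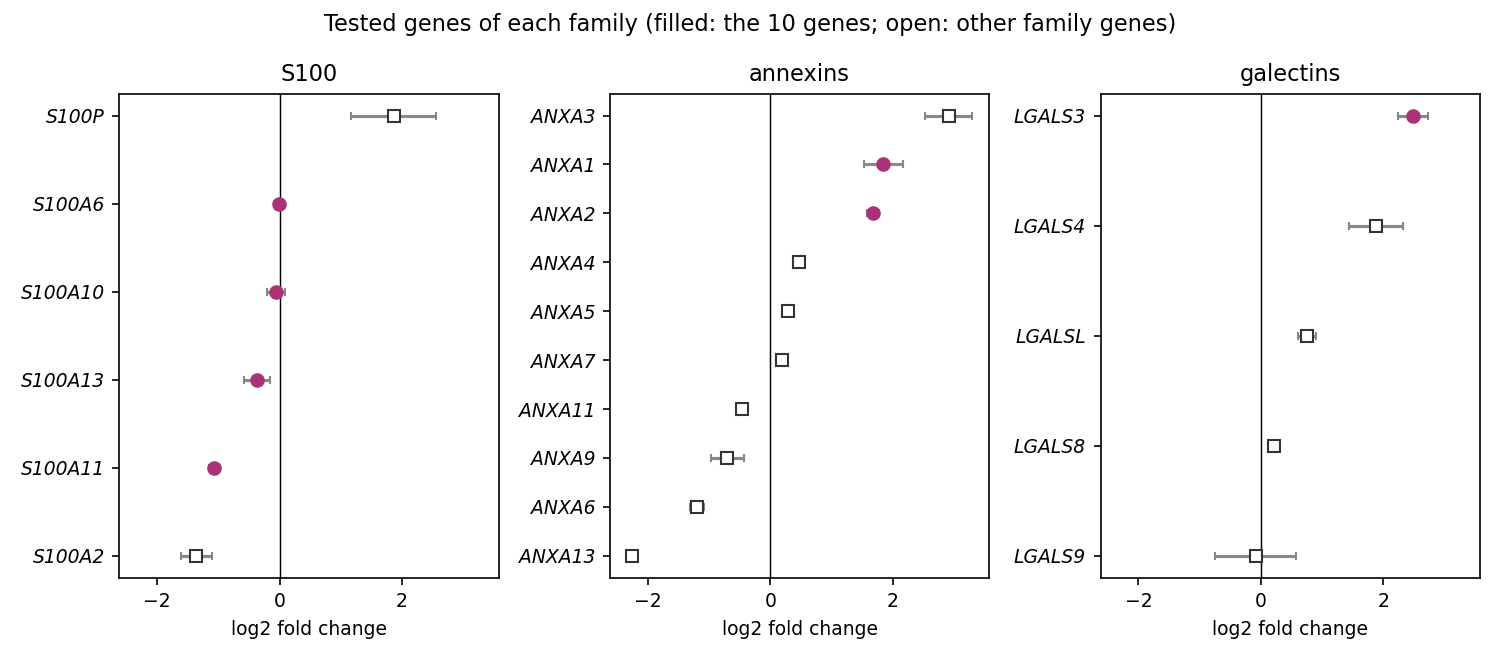
Log2 fold change of OC2-OE against control with 95% intervals for every tested gene of the S100, annexin and galectin families. Filled circles are genes among the 10 and open squares are other genes of the families. The S100 genes ran from -1.36 to 1.87 and the annexins from -2.26 to 2.92, and the galectins from -0.08 to 2.49.

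Binding partners and receptors of these proteins were counted as a list of 24 genes, of which 19 were tested, 10 were higher and 5 lower, with a median log2 fold change of 0.58. The shares over all tested genes were 27.8% higher and 28.7% lower. CD44, a hyaluronan receptor that binds galectins, rose by 3.94 on the log2 scale from 7 counts in the control to 120 in the OC2-OE libraries. TLR4, a receptor for S100A8 and S100A9, rose by 2.13, and PLA2G4A, the cytosolic phospholipase that annexins can inhibit, fell by 2.72, from 139 to 22 counts. Further partners are given for their role, and were named after values were seen. AHNAK, the giant scaffold held by S100A10 and ANXA2, fell from 60.8 ± 2.20 to 17.8 ± 0.494 CPM (SD, n = 3), and the log2 fold change was -1.77 (adjusted p = 7.13e-56). DYSF, dysferlin, which acts with annexins at membrane wounds, rose from 11.8 to 40.6 CPM, a log2 fold change of 1.78. LGALS3BP, a secreted glycoprotein bound by galectin-3, rose by 0.40 and the lysosomal glycoproteins LAMP1 and LAMP2, which carry galectin-3 ligands, rose by 0.72 and 1.07. Of the plasminogen system, PLAU rose by 0.64, PLAT and PLAUR did not pass (adjusted p = 0.00353 and 0.00192), and PLG had 1 count in all libraries together.

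A list of 19 other EF-hand, calpain and membrane repair genes had 17 tested, with 5 higher and 8 lower and a median log2 fold change of -0.10, beside 56.5% of all tested genes that passed in either direction. TRIM72, MYOF and CAPN2 moved farthest. MYOF, myoferlin, fell from 17.6 ± 1.57 to 5.36 ± 0.0296 CPM (SD, n = 3), and TRIM72, a repair protein of muscle membrane, fell by 1.82 on the log2 scale. CAPN2, the large subunit of m-calpain, fell by 1.17, while CAPNS1, the small subunit, rose by 0.11. This list therefore held changes in both directions.

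The S100 members lie in clusters on chromosome 1, so the genes within 1 Mb of them were examined. Of 64 tested neighbours 18 were higher and 19 lower, with a median log2 fold change of 0.05, and 27 did not pass. The share that passed was close to that of all genes. Within 0.5 Mb, 5 were higher and 12 lower of 32 tested, and the difference between the windows was not tested. Over all tested genes 56.5% passed, 27.8% higher and 28.7% lower. SEMA6C, a semaphorin, rose by 3.34 on the log2 scale, and CELF3, a neural splicing factor, and RIIAD1 fell by 1.77 and 1.75. The genes beside the S100 members on the map behaved unevenly. S100A11 fell while S100A10, the next tested gene, did not change beyond its interval, and S100A2 fell between S100A6 and S100A13.

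**Figure D4:**
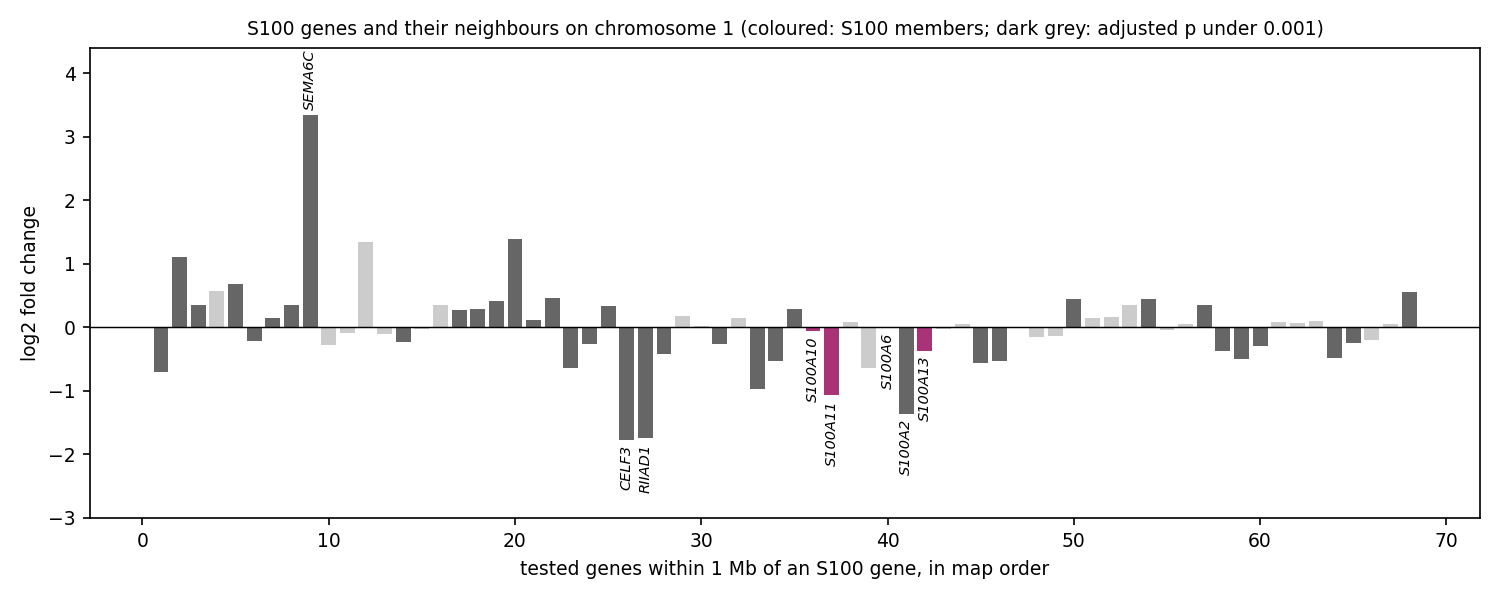
Log2 fold change of the tested genes within 1 Mb of an S100 gene on chromosome 1, in map order. Coloured bars are S100 genes among the 10, dark grey bars are other genes with an adjusted p under 0.001 and light grey bars the rest. SEMA6C at 3.34 stands out, and S100A11 at -1.07 lies between S100A10 and genes without a change past the threshold.

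For each tested member, the gene with the most similar profile was sought among 11173 or 11174 genes with a mean log2 CPM of at least 3, by the Euclidean distance of log2 CPM centred over the 6 libraries. With 2 groups of libraries, this distance mostly reads the size of the change. The nearest gene to ANXA2 was GDF15, a stress-induced cytokine, at a distance of 0.0457 and with 609 CPM in control and 1920 CPM in OC2-OE cells. The nearest to ANXA1 was PROCR, the endothelial protein C receptor, at 0.175, and the nearest to LGALS3 was GNB5, a G protein subunit, at 0.212. S100A11 lay nearest to SGIP1, an endocytic adaptor, at 0.0407, and S100A6 to BRK1, a subunit of the WAVE complex, at 0.0375. S100A10 lay nearest to ZNF675, at 0.0396, and S100A13 to RAB17-DT, at 0.238. None of these nearest genes belongs to the 3 families.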

How the data were processed

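RNA-Seq libraries from 3 control and 3 OC2-OE cultures of DMS53 cells were used. Stranded libraries of poly(A) RNA were made for the study at a genomics core facility. For the study, reads were aligned to GRCh38 with STAR 2.7.9a. Read pairs were counted on the exons of GENCODE release 42 genes with featureCounts 1.6.0 (options from the file headers, versions from the submitters' processing notes). The deposited values are raw counts per gene, with no normalization. Totals were 16533284 to 19099337 per library, which limits the precision of low genes, and counting intervals cover counting error only.

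Counts were normalized with TMM, filtered with filterByExpr and tested with edgeR 4.0.16 in R 4.3.3 (quasi-likelihood, robust, no replicate term) over 17307 genes, with Benjamini-Hochberg adjustment and a threshold of 0.001. Standard errors are the absolute log2 fold change over the square root of F. Symbols were matched by identifier for 62625 of 62696 genes. TPM used the exon length in the files. The fit was tested on simulated data. Promoters of RefSeq on GRCh38.p14 matched 9 of the 10 genes. The alternatives were other scalings, DESeq2 1.42.0, limma voom (limma 3.58.1), other filters, ONECUT2 left out, a replicate block and each library left out.

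The 10 genes, the gene lists and the tests were chosen with earlier results of these data known. Named beside the 10 are ONECUT2, the 3 genes with the largest absolute change under 0.001 on each list and among the neighbours, the nearest gene to each member and near-identical copies, and other genes where stated. Genes outside this rule that mark cell types or bind a member were named for their role.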

Additional observations from a re-analysis of the deposited data

How the results depend on the processing

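ANXA1, ANXA2, LGALS3, S100A11 and ONECUT2 kept their direction and their side of 0.001 under every alternative run. The log2 fold change ran from 1.77 to 1.91 for ANXA1, 1.65 to 1.73 for ANXA2, 2.43 to 2.61 for LGALS3 and -1.09 to -1.01 for S100A11. The sign of S100A6 was not fixed: its log2 fold change was 0.04 with library size only (0.0441), 0.0363 with upper-quartile normalization and 0.00141 with a minimum of 10 counts per library, and -0.0479 to 0.0273 with each library left out. That of S100A10 was -0.101 to 0.00587 with each library left out. S100A13 passed 0.001 without a filter on low counts (log2 fold change -0.366, adjusted p = 0.000702) and with the replicate block (-0.369, adjusted p = 0.000912), and over the libraries left out it ran from -0.511 to -0.239, with adjusted p-values from 7.84e-06 to 0.0559. For this reason 2 of the 10 genes were lower, in place of 1, without the filter, with the replicate block, with an adjusted p under 0.05 and without control replicate 1 or OC2-OE replicate 3 (range 1 to 2). The cause was not tested.

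With a log2 fold change of at least 1 as a further condition, fewer genes counted by construction: 3 of the 14 other family genes tested were higher and 3 lower, in place of 8 and 5, and 4 of the 36 partners and repair genes tested were higher and 5 lower, in place of 15 and 13. Over all tested genes 17.3% met that condition, 8.29% of all being higher. Within 0.5 Mb of an S100 gene, 5 of 32 tested neighbours were higher and 12 lower, in place of 18 and 19 of 64. The shares over all tested genes without the fold condition were 27.8% higher and 28.7% lower. The length used per gene moved the ratio of S100A11 to ANXA1, taken here between the group means, from 333 to 94.6 in control and from 44.5 to 12.6 in OC2-OE cells, a choice added after the data were seen. Same-numbered libraries did not deviate together (correlations of 0.00248, 0.0344 and 0.0263 over genes), so the numbers were not taken as pairs, and the replicate block changed no other call among the 10 genes. Depth limits S100A4, S100A16 and LGALS1.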
